A study of Mus musculus with 9 samples.

Results

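The Hox genes lie in 4 clusters of the mouse genome, and CpG methylation in these clusters was compared among 5 pools of mouse embryonic stem cells that differ in the Dnmt3a2 construct they carry. The clusters were taken as windows of the mm9 build: chromosome 6 from 52100000 to 52220000 for Hoxa, chromosome 11 from 96040000 to 96240000 for Hoxb, chromosome 15 from 102740000 to 102880000 for Hoxc and chromosome 2 from 74490000 to 74620000 for Hoxd. The windows were set by position alone, and 38 Hox genes are listed for them. A position is a CpG cytosine on 1 strand that was covered by at least 10 reads in every pool. Of 1263118 such positions in the nuclear genome, 3792 lay in the windows: 1018 in Hoxa, 897 in Hoxb, 767 in Hoxc and 1110 in Hoxd. A further 645 lay in the 100 kb on each side of the windows, called flanks here, and 1258681 lay elsewhere.

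Hox genes encode homeodomain transcription factors that give cells their position along the body axis, and their order in a cluster follows the order of the body regions in which they act. The clusters are rich in CpG islands, and in embryonic stem cells most Hox genes are silent and covered by Polycomb proteins. CpG islands mostly carry little DNA methylation, while the CpG-poor DNA around them is usually methylated. Dnmt3a2 is the shorter form of the de novo methyltransferase Dnmt3a and the form found in embryonic stem cells. Its ADD domain binds the tail of histone H3 when lysine 4 carries no methyl group.

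Every library came from Dnmt TKO cells of the J1 line at passages 7 to 10, so all pools, the controls included, share that genotype, in which the maintenance and de novo methyltransferases are knocked out. The TKO pool carried no construct named in the labels and holds 1 sample. WT cells expressed wild-type Dnmt3a2, and WWD and R cells expressed Dnmt3a2 constructs with those names, whose changes the labels do not spell out beyond the series title, which speaks of an engineered histone-recognition domain. C is a further pool of these cells with no construct named. WT, WWD, R and C have 2 numbered samples each, but the labels tie the same table to both, so each group is a single pool with no spread between samples. The labels give neither the promoter that drives a construct nor the number of clones, and the level of construct expression was not measured in these data. Methylation is the percent of reads with an unconverted cytosine in reduced representation bisulfite sequencing, which reads CpGs near the MspI site CCGG.

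In the windows, the summed reads over positions came to 470364 in WT, 512034 in R, 389544 in WWD, 356228 in TKO and 367490 in C. Coverage was uneven: at 1197 of the 3792 positions the TKO pool had less than 0.5 times the WT coverage, with a median of 16 reads in TKO and 24 in WWD against 53 in C, 104 in WT and 87 in R. The other 2595 positions, called full depth, had medians of 129, 121, 139, 137 and 161 reads in TKO, C, WT, WWD and R. At the positions of reduced depth the mean level was 1.06% in TKO and 5.22% in WWD, while at full depth it was 0.161% and 1.55%. The part of coverage in this difference was not tested, so WWD means are given at full depth, and tiles and promoters over all their positions and again at full depth where these differ.

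The Hox clusters carried little methylation in every pool, and what they carried was found in WT and R and far less in WWD. Over all 3792 positions the mean level was 0.446% ± 2.17 in TKO and 0.217% ± 0.854 in C, and 4.81% ± 9.58 in WT, 5.54% ± 10.6 in R and 2.71% ± 7.20 in WWD, where the error is the SD over positions. At full depth the means were 0.161% ± 0.562, 0.195% ± 0.698, 4.34% ± 8.595, 1.55% ± 3.54 and 4.74% ± 9.02 in TKO, C, WT, WWD and R. Both pools without a named construct were thus near 0, WT and R were the highest, and WWD lay between them and the controls. Summed reads gave 5.09% in WT (95% Wilson interval 5.03 to 5.15%), an interval that covers counting error only and is too narrow because a read counts once for each CpG it covers. In WT 42.2% of the full-depth positions had no methylated read, the median was 0.877% and the highest value was 61.7%. None of the full-depth positions exceeded 50% in WWD, against 12 in WT and 19 in R.

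The 4 clusters were alike in this order of pools and differed in level. At full depth the WT mean was 3.86% in Hoxa (675 positions), 5.58% in Hoxb (624), 4.58% in Hoxc (546) and 3.56% in Hoxd (750). In R the same clusters had 4.10%, 6.38%, 4.84% and 3.86%, and in WWD 1.43%, 1.99%, 1.59% and 1.253%. Hoxb was therefore the highest cluster and Hoxd the lowest in all 3 pools with a construct. Over all positions Hoxa was the lowest in WT, with 4.06% against 4.25% in Hoxd. No test of the order was possible without separate samples. Hoxb also had the fewest positions per length, 448.5 per 100 kb against 848 in Hoxa, 548 in Hoxc and 854 in Hoxd.

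**Figure D1:**
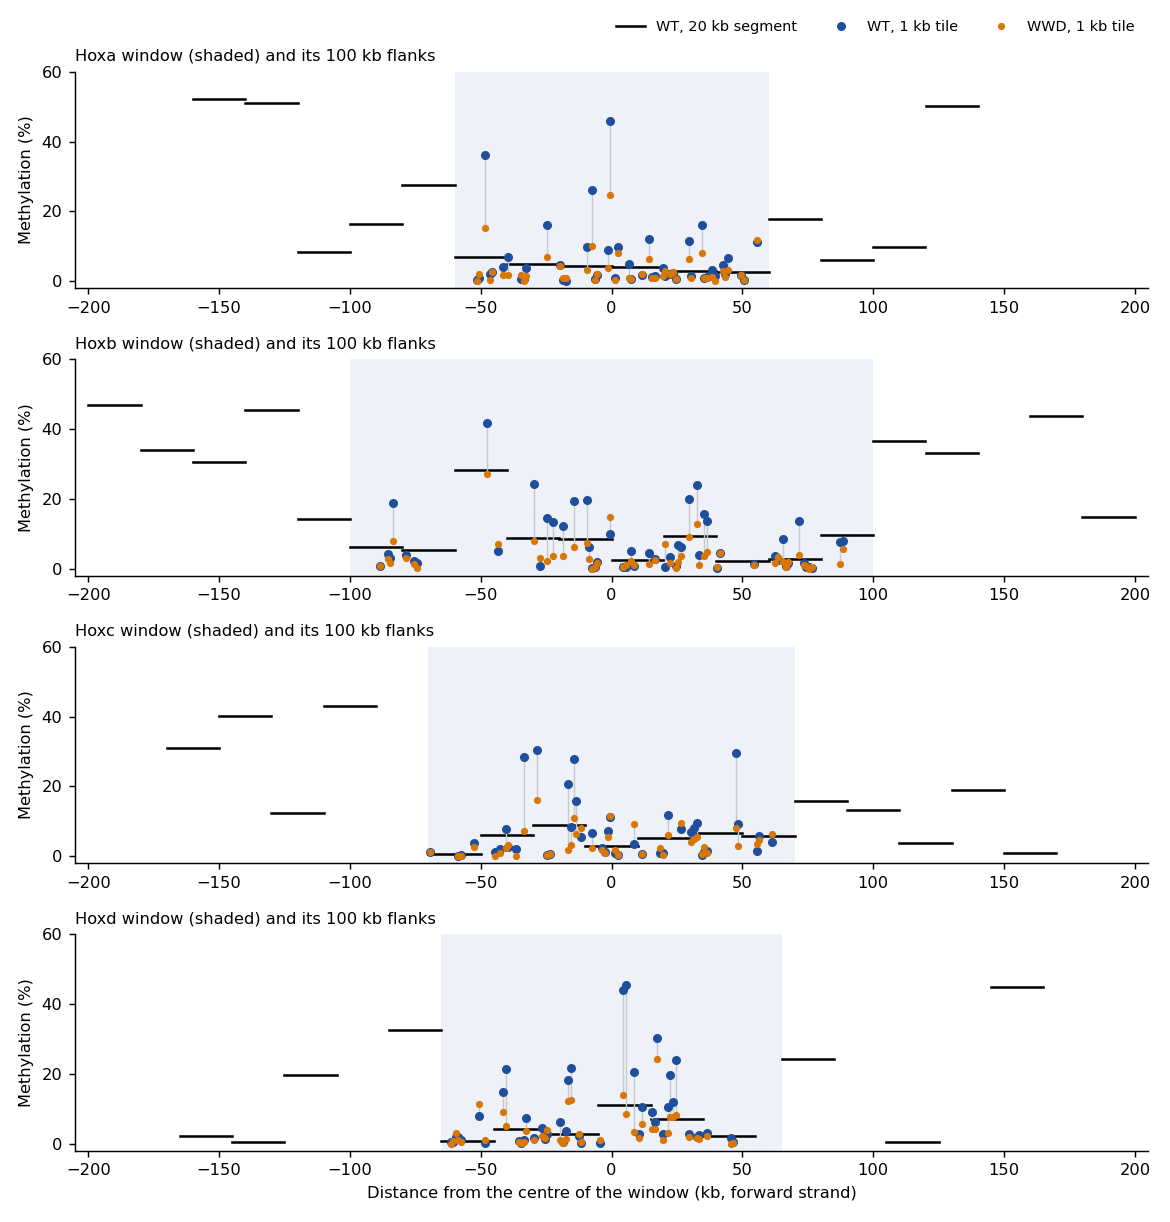
Mean methylation (%, all common positions) along each Hox window (shaded) and its flanks against the distance from the window centre in kb. Blue dots are WT and orange dots WWD in 1 kb tiles with at least 5 positions, joined by a grey line, and black bars are WT means of 20 kb segments. Most window tiles lie below 10% in WT. On each side the nearest segment with positions is higher than every segment of the window, except on the left of Hoxb. That segment has 14.2%, below a Hoxb window segment with 28.4%. The nearest segments on the left of Hoxa and Hoxc hold only 1 and 2 positions.

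Outside the windows, WT methylation was higher, by amounts that differed between sides. Over all positions the WT mean was 17.8% in the flanks together, and 15.97% at full depth. The left flank of Hoxa had 32.5% (26 positions), both flanks of Hoxb had 31.2% (118) and 33.8% (65), and the left flank of Hoxc had 34.4% (23). On the right of Hoxa and Hoxc the level was 10.6% (185 positions) and 10.95% (126). The flanks of Hoxd had 5.99% (57 positions) and 6.25% (45), close to the 4.25% of the Hoxd window itself. Of the 57 left positions, 45 lay in a single 20 kb segment with a WT mean of 0.547%. On the right, 36 of the 45 lay in another, with 0.591%. The 20 kb segments next to the Hoxd window were higher than the window, with 32.6% on the left (9 positions) and 24.3% on the right (7).

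Methylation falls with the density of CpGs, so Hox tiles of 1 kb were set beside tiles elsewhere with a like number of positions. Only CpGs read in all 5 pools count as positions, so a tile with few positions is not always poor in CpGs. Compared in this way, Hox tiles with few positions were less methylated than elsewhere in each cluster. Those with many were slightly more methylated in the clusters together, but by the mean over positions not in each. In tiles with under 5 positions the full-depth WT mean was 13.5% in the Hox windows (136 positions) and 28.4% elsewhere. With 5 to 9 positions it was 9.31% (288) against 25.9%, and with 10 to 19 it was 6.67% (565) against 13.0%. The order turned in dense tiles of the 4 windows together: 2.91% (708 positions) against 2.14% with 20 to 39 positions, and 1.01% (898) against 0.457% with 40 or more. The median over dense tiles differed the same way, 1.63% in Hox tiles with 20 to 39 positions against 0.356% elsewhere and 0.521% with 40 or more against 0.207%. By this median each cluster lay above the tiles elsewhere. Hoxa, Hoxb, Hoxc and Hoxd had 1.59%, 0.752%, 1.80% and 2.50% with 20 to 39 positions. With 40 or more they had 0.764%, 0.570%, 0.280% and 0.610%.

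The same was seen in R, with 14.9% against 28.4% in the sparsest class and 1.23% against 0.509% in the densest. In WWD the levels were 4.06% against 6.29% and 0.524% against 0.309%. In TKO and C the densest class had 0.146% and 0.1499% in the Hox windows and 0.128% and 0.137% elsewhere, so in the pools with no construct named windows and genome were closer. By cluster, tiles with 20 to 39 positions had 4.19% in Hoxc, 3.41% in Hoxb, 2.64% in Hoxd and 2.11% in Hoxa in WT, so that Hoxa did not exceed the 2.14% elsewhere. In the same pool the densest tiles had 1.44% in Hoxd, 1.12% in Hoxa, 0.546% in Hoxb and 0.278% in Hoxc, so that Hoxc lay below the mean elsewhere. When the means elsewhere were weighted to the mix of tile classes in the windows, they gave 7.94% in WT, 8.07% in R and 2.31% in WWD against 4.34%, 4.74% and 1.55% observed. Each cluster lay below its own weighted mean in WT: Hoxa 3.86% against 7.63%, Hoxb 5.58% against 10.7%, Hoxc 4.58% against 8.91% and Hoxd 3.56% against 5.21%.

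**Figure D2:**
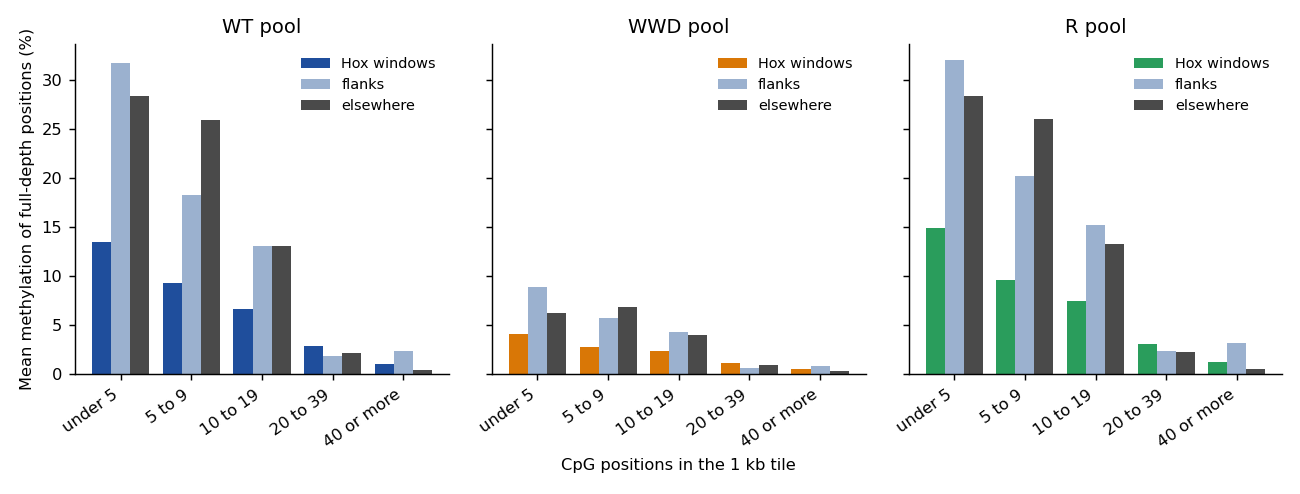
Mean methylation (%) of full-depth positions by the number of CpG positions in their 1 kb tile, in the WT, WWD and R pools. Coloured bars are the Hox windows, light bars their flanks and dark bars positions elsewhere; the Hox bars are lower than elsewhere in the 3 sparse classes and higher in the 2 dense ones.

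Tiles with few positions in a cluster often lie close to tiles with many, and levels also depend on that distance. Positions in tiles with fewer than 10 positions were therefore grouped by how many tiles away the nearest tile with 20 or more positions was, a grouping chosen after the data were examined. In the adjacent tile the full-depth WT mean was 6.49% in the windows (180 positions) and 8.31% elsewhere. At a distance of 2 tiles it was 10.9% (64) against 22.9%, at 3 to 5 tiles 14.0% (101) against 26.5% and at 6 to 10 tiles 16.1% (48) against 28.4%. Over 10 tiles away, where only Hoxb had positions, it was 15.2% (31) against 28.7%. The Hox mean thus stayed below that elsewhere at each distance. By the median over positions this did not hold in the adjacent tile, with 2.42% in the windows against 1.099% elsewhere. At each larger distance the Hox median was the lower. The clusters also differed. Hoxd had 8.75% in the adjacent tile, 29.97% at 3 to 5 tiles over 8 positions and 38.2% at 6 to 10 tiles over 5, each above the mean elsewhere.

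**Figure D3:**
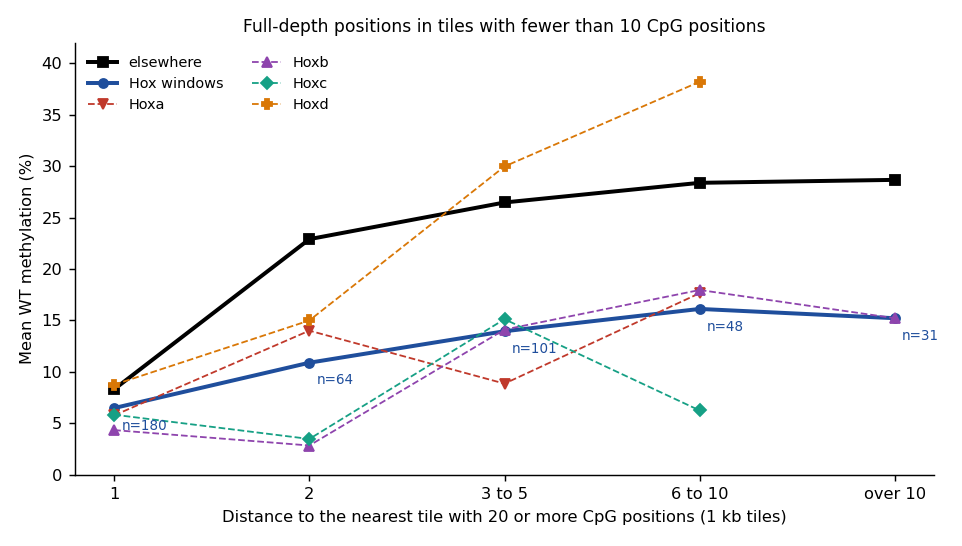
Mean WT methylation (%) of full-depth positions in tiles with fewer than 10 CpG positions against the distance to the nearest tile with 20 or more, in 1 kb tiles. Black squares are positions elsewhere, blue dots the 4 Hox windows together with their number of positions, and dashed lines the clusters; the blue line lies below the black at every distance, while Hoxd lies above it in the adjacent tile and again from 3 tiles on.

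Other stretches rich in positions were used as a further reference. Elsewhere, 121 bins of 100 kb held at least 400 positions, and at least 20 full-depth positions in tiles with fewer than 10. The windows held from 448.5 (Hoxb) to 854 (Hoxd) positions per 100 kb. Bins were not matched to a window by density beyond the minimum of 400. The mean WT level of these sparse positions ran from 11.2% to 37.4% over the bins, with a median of 23.4%. The Hoxa and Hoxc windows had 8.51% each and lay below all 121 bins, Hoxb had 11.8% with 1 bin below it, and Hoxd had 13.9% with 7 bins below it. Low levels of sparse positions were not confined to the windows. The right flanks of Hoxa and Hoxc had 12.5% (55 positions) and 11.96% (49) by the same measure. The other flanks had from 20.8% to 32.4%. The windows are 120 to 200 kb long, so they are not of the length of the bins.

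Each cluster held a long stretch of consecutive tiles under 10% in WT, though the ranks of these stretches differed. The stretch at the left edge of the Hoxc window covered 34 kb with 13 tiles, from 102740001 to 102774000, and ranked the third by length and the second by tiles of 29578 such stretches in the genome. The longest in the other windows covered 19 kb in Hoxa (11 tiles), 14 kb in Hoxd (12 tiles, with another of the same length and 10 tiles) and 10 kb in Hoxb (7 tiles). By length these ranked 49 in Hoxa, 169 in Hoxd and 659 in Hoxb. Stretches were cut where more than 10 kb held no position, and rank depends on where MspI fragments lie.

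Fisher's exact test, two-sided, was run on the reads of each position in a pair of pools, with p-values adjusted by Benjamini-Hochberg over all common positions. A position was called where the levels differed by 25 points or more and the adjusted p was below 0.01. Such a test compares the reads of 2 pools, not the conditions. WT was higher than TKO at 156 Hox positions, 4.11% of those in the windows, where 22.9% of all common positions in the genome were called. At full depth the count was 107 of 2595, or 4.12%, against a background of 22.2%. By cluster 34, 51, 31 and 40 positions were called in Hoxa, Hoxb, Hoxc and Hoxd, and the flanks had 161 of 645. Of the 156, 40 lay in tiles with under 5 positions, 50 in tiles with 5 to 9 and 9 in tiles with 40 or more. That last count is 0.689% of the 1306 positions in the densest class, which elsewhere had 0.149% called, while in the sparsest class 22.6% were called in the windows and 51.1% elsewhere.

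R against TKO shares the TKO pool with this comparison and called 186 positions as higher (background 23.5%), 113 of them at full depth (background 22.1%). R was lower than TKO at 1 Hox position (background 0.0434%) and at none at full depth (background 0.00011%). Of the 156 positions called in WT, 127 were also called in R. The same overlap was not computed over all positions, so it is not a result about the clusters. WWD against TKO called 33 as higher (background 5.24%), of which 6 were at full depth (background 2.69%). C against TKO called no Hox position in either direction (background 0% higher and 0.00127% lower), with 12 positions higher and 31 lower at an unadjusted p under 0.05, 0.316% and 0.818% of those in the windows against 0.709% and 0.905% elsewhere. The only Hox positions lower in WT than in TKO were 2 (background 0.05%), and at full depth there were none (background 0.00011%). They were chosen for mention after their values were seen: the position in Hoxc had 29.4% of 17 reads in TKO and 2.03% in WT, and that in Hoxa had 33.3% of 12 reads and 0%. Neither was at full depth.

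At the 107 full-depth positions where WT was called above TKO, the mean level was 0.151% in TKO and 0.298% in C, and 37.1% in WT, 35.9% in R and 11.8% in WWD. WT ranged from 25.1% to 61.7%, WWD from 0% to 49.3% and R from 11.4% to 69.6%. These positions were taken for a high WT level, so their WT values are a description and are not compared with the other pools. The 113 full-depth positions called higher in R than in TKO, a choice that does not use WT or WWD and was made after the data were examined, had 33.5% in WT and 11.9% in WWD. WWD was below WT at 109 of them, a count that was not made elsewhere.

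Set against WT directly, WWD was called lower at 65 Hox positions (background 15%), 55 of them at full depth (background 17.5%), and higher at 13 (background 0.258%). A lower call is possible only where WT is at 25% or more, and 7.01% of the Hox positions were above 20% in WT. The low count of lower calls is therefore bound to the WT level and is not a result about WWD. All 13 lay outside the full-depth positions, with a median coverage of 15 reads in TKO and 28 in WWD against 111 in WT, and had a mean level of 43.7% in WWD and 9.69% in WT. At full depth no Hox position was called higher in WWD (background 0.00066%), and 22 were higher at an unadjusted p under 0.05, 0.848% of those in the windows against 0.321% elsewhere. R was called higher than WT at 4 positions (background 0.203%) and lower at none (background 0.0509%). At an unadjusted p under 0.05, R was higher than WT at 210 Hox positions, 5.54% of those in the windows against 6.58% elsewhere. It was lower at 81, 2.14% against 3.99%. Of the 4, only that at 52202616 in Hoxa was at full depth (background 0.0731%), with 6.58% of 76 reads in WT, 33.9% in R, 12.9% in WWD and 0% in TKO and C (adjusted p = 0.0020, Fisher's exact test). These comparisons share the WT pool.

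The gain over TKO puts WWD and R on the scale of WT. In the windows the WWD gain was 33.1% of the WT gain at full depth, and 51.8% over all positions. It was 34.0% in Hoxa, 33.8% in Hoxb, 32.6% in Hoxc and 32.1% in Hoxd, a span of under 2 points. Elsewhere the same share was 24.7%, but it rises with the number of positions in a tile, and the windows are rich in positions. By tile class from sparse to dense it was 28.3%, 28.8%, 34.2%, 37.4% and 43.5% in the windows and 21.5%, 25.9%, 29.5%, 39.2% and 54.9% elsewhere. The windows were thus above the share elsewhere in the 3 sparse classes and below it in the 2 dense ones. R gained 109% of the WT gain at full depth in the windows and 101% elsewhere.

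By tile, WWD was mostly but not always below WT. Of 153 Hox tiles with at least 5 full-depth positions, WWD was below WT in 135 and R was below WT in 56. Elsewhere WWD was below WT in 81.1% of 44261 such tiles and R in 44.4%. To compare WWD with WT in methylated tiles without choosing them by either pool, tiles with at least 10% in R were taken, a choice made after the data were examined. There were 33, with a mean of 16.7% in WT and 5.04% in WWD, and WWD was below WT in all 33. WWD had between 10.1% and 70.5% of the WT level there, with a median of 29.4%. Elsewhere the median was 25.6% over 20624 such tiles, with WWD below WT in 99.8%. Over the 2595 full-depth positions, Pearson's r with WT was 0.911 for R and 0.735 for WWD, and elsewhere 0.955 and 0.760. These describe positions of the same libraries, many of them from the same fragment.

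**Figure D4:**
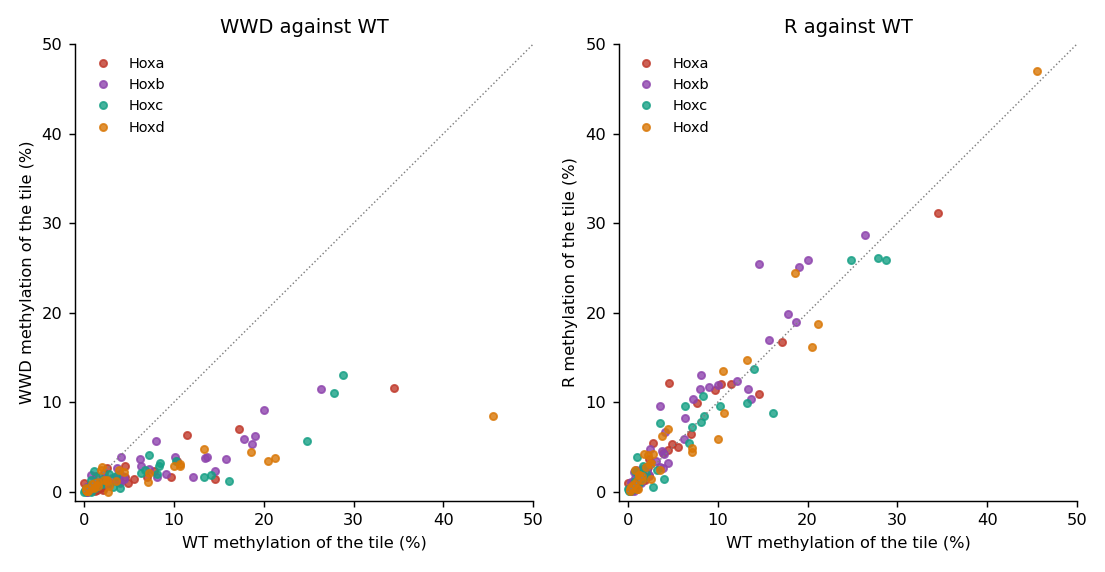
Mean methylation (%) of the 153 Hox tiles with at least 5 full-depth positions in WWD (left) and R (right) against WT, coloured by cluster, with the line of equal values dotted. Of the 153 tiles, 135 lie below the line in WWD and 56 in R.

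Few Hox tiles were highly methylated in WT. Of 184 tiles with at least 5 positions, 113 were under 5%, 19 were at 20% or more and 4 at 40% or more, with a median of 3.15%. Elsewhere 46.6% of such tiles were at 20% or more, against 10.3% in the windows, and the median was 16.7%. Of the 19, 3 were in Hoxa, 4 in Hoxb, 5 in Hoxc and 7 in Hoxd. The tiles given next were picked by their WT level, so their values are a description without a test.

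In Hoxa the highest tile lay at 52159001 to 52160000, 330 bp upstream of the start of Hoxa6, a gene of the middle of the cluster. It had 3.18% in TKO and 0.249% in C, and 45.8% in WT, 41.8% in R and 24.8% in WWD over 6 positions. Its 2 full-depth positions had 30.5% in WT, 25.5% in R and 1.48% in WWD. The tile at 52111001 to 52112000 had 36.1% in WT, 34.6% in R, 15.4% in WWD, 0.561% in TKO and 0.242% in C over 13 positions, and 34.5%, 31.2% and 11.6% in WT, R and WWD over the 11 at full depth. Both were high in WT and R, lower in WWD and low in the pools with no construct named. The lowest tile with at least 5 positions, at 52142001 to 52143000, had 0 of 684 reads methylated in WT, which allows up to 0.558% (Wilson), and 0.979% in WWD and 0.988% in R.

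In Hoxb the highest tile was at 96092001 to 96093000, with 0.248% in TKO and 0% in C, and 41.8% in WT, 53.9% in R and 27.2% in WWD over 7 positions. The 3 at full depth had 32.002% in WT, 36.1% in R and 6.50% in WWD. The next, at 96110001 to 96111000, had 24.4% in WT, 34.4% in R, 7.92% in WWD, 1.54% in TKO and 0% in C over 5 positions, none at full depth. R was the highest pool in both. The lowest, at 96180001 to 96181000, had 0.281% in WT, 0.336% in R and 0.555% in WWD over 41 positions, all at full depth.

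In Hoxc the highest tile was at 102781001 to 102782000, with 0.0496% in TKO and 0.327% in C, and 30.4% in WT, 28.7% in R and 16.2% in WWD over 9 positions. The 7 at full depth had 28.8% in WT, 25.8% in R and 12.99% in WWD. The tile at 102857001 to 102858000 had 29.5% in WT, 31.6% in R, 8.19% in WWD, 0.122% in TKO and 0.811% in C over 11 positions, and 24.8%, 25.8% and 5.67% in WT, R and WWD over the 10 at full depth. WT and R were within 3 points of each other in both, and WWD was lower. The lowest tile of the cluster lay at 102751001 to 102752000 and had 46 positions, with 0.105% in WT, 0.174% in WWD, 0.107% in R and 0.104% in TKO, and 0.115% in WT and 0.190% in WWD over the 42 at full depth.

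In Hoxd the highest tiles adjoin each other at the start of Hoxd4, a gene that acts in the hindbrain and neck region. The tile at 74560001 to 74561000 had 0.294% in TKO and 0.245% in C, and 45.5% in WT, 46.96% in R and 8.43% in WWD over 5 positions, all at full depth. That at 74559001 to 74560000 had 44.1% in WT, 39.1% in R, 13.98% in WWD, 0.314% in TKO and 0.886% in C over 5 positions, and 42.2%, 33.3% and 8.39% in WT, R and WWD over the 4 at full depth. Both were high in WT and R and low in WWD. The lowest tile, at 74506001 to 74507000, holds the start of Hoxd13, the gene at the late-acting end of the cluster, and had 0.201% in WT, 0.211% in R and 1.11% in WWD over 60 positions. Over the 42 at full depth it had 0.209% in WT, 0.136% in R and 0.183% in WWD, so the excess of WWD over WT was not present there.

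The single full-depth position highest in WT was taken from each cluster, as a description without a test. In Hoxa, position 52111128 on the minus strand had 56.8% in WT (155 reads, 95% Wilson interval 48.9 to 64.3%), 31.4% in WWD and 51.7% in R, with 0% in TKO and C. In Hoxb, position 96127442 on the plus strand had 60.5% in WT (190 reads, 53.4 to 67.2%), 13.9% in WWD, 69.6% in R, 1% in TKO and 0% in C. In Hoxc, position 102781425 on the minus strand had 53.5% in WT (217 reads, 46.8 to 59.98%), 16.7% in WWD, 36.1% in R, 0.446% in TKO and 0% in C. In Hoxd, position 74567554 on the minus strand had 61.7% in WT (240 reads, 55.4 to 67.6%), 20.1% in WWD, 57.96% in R, 0% in TKO and 1.33% in C. R was the highest pool at the position in Hoxb, and TKO and C had under 2% at each.

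Hox genes were tied to these positions through their promoters. No annotation of mm9 was used, so RefSeq promoter sequences, from 250 bases before a gene's start to 50 after it, were placed on the mm9 positions by the pattern of their CpGs. Of the 38 genes, 22 had a sequence, 11 were placed by the rule and 10 were not placed. Hoxd4 has 4 CpGs, fewer than the 5 the rule asks for, and was added after the data were examined because all 4 were read at a single matching place in the window. All placed members belong to Hoxa and Hoxd, so no promoter of Hoxb or Hoxc is described. The distances between placed starts matched those in RefSeq to the base for the 8 members on chromosome 2 and within 5 bp for the 4 on chromosome 6.

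The promoters highest and lowest in WT are printed to show how CpG content differs between them. They are the 250 bases before the start, 5′ to 3′, from RefSeq (GRCm38.p6), with CpGs read in every pool in capitals.
Hoxd4: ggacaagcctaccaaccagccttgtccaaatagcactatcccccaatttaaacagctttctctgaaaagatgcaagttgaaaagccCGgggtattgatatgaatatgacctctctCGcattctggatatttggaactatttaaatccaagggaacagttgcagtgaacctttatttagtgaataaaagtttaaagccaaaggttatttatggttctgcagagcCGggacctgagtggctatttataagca
Hoxd12: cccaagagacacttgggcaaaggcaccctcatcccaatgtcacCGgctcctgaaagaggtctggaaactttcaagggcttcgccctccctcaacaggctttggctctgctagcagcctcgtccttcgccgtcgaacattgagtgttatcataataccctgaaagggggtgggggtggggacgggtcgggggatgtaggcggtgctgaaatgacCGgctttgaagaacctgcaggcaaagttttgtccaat
Hoxa11: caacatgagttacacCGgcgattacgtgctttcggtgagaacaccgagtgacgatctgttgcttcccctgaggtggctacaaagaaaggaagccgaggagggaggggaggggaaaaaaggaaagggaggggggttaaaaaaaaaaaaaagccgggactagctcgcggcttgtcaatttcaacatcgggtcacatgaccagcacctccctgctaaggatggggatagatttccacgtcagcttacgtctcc
Hoxd3: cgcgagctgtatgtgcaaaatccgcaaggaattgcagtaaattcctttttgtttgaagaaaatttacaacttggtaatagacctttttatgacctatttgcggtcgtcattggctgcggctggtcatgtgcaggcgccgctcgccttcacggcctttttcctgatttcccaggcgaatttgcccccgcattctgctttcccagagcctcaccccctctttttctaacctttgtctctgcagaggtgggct
Hoxa13: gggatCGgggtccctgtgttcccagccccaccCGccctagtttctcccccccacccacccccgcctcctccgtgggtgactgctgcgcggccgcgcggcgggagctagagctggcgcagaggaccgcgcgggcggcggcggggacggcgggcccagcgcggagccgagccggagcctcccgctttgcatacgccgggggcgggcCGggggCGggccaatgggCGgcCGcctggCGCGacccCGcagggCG
Hoxa13, the lowest, has 45 CpGs in its 300 bases and the highest, Hoxd4, has 4. Hoxd12 has 13, Hoxa11 15 and Hoxd3 20. The positions read for Hoxd3 all lie after its start, so none is in capitals. The MspI site CCGG, which reads the same on both strands, occurs in 52.8% of the promoters of the RefSeq table and in at least 1 sequence of all but 3 of the 22 members with a sequence.

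Most placed Hox promoters were nearly free of methylation in every pool. By the rule, 1 of 11 promoters reached 5% in WT, where 4.98% of all 9976 placed promoters with a common position did, and the median was 0.699%. Among promoters with 20 to 29 CpGs, the 7 members had a median of 0.633% in WT and 0 of them reached 5%, against a median of 0.179% and 1.58% for the 3734 others. The 2 members with 10 to 19 CpGs were Hoxd12 and Hoxa11, and 11.02% of the 2441 other promoters of that class reached 5%. The 2 with 30 or more were Hoxd13 and Hoxa13.

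Hoxd4 had the highest promoter level. Its 4 positions, from 74559871 to 74560035, had a mean of 0.137% in TKO and 0.181% in C, and 52.1% in WT, 46.2% in R and 10.5% in WWD, all at full depth. WT and R were high and WWD was low at each. From 5′ to 3′ the WT levels were 43.0%, 60.3%, 55% and 50%, the WWD levels 1.32%, 21.7%, 5.21% and 13.7%, and the R levels 30.2%, 42.9%, 59.2% and 52.5%, each over 152 to 261 reads. All 4 were called higher in WT than in TKO and lower in WWD than in WT (largest adjusted p = 3.5e-13 in the second comparison, Fisher's exact test with Benjamini-Hochberg adjustment). R was not called apart from WT at any (adjusted p from 0.031 to 1). Placed promoters with under 10 CpGs, 277 in number, had a median of 8.16% in WT, and 56.7% of them reached 5%.

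Hoxd12, which acts in limb patterning, was the highest by the rule. Its 7 positions from 74512864 to 74513116 had 0.493% in TKO and 1.03% in C, and 19.4% in WT, 30.3% in R and 12.2% in WWD, and 4 of them were at full depth. At these 4, just after the start, WT had 11.1%, 20.6%, 12.0% and 18.2% and WWD 0.952%, 8.97%, 2.04% and 5.52%, with means of 15.5% and 4.37%. R had 10.8%, 33.97%, 20.7% and 29.7% there. R was thus the highest pool at 3 of the 4 and WWD the lowest of the 3 pools with a construct at all. The remaining 3 had 12 to 28 reads in TKO and 14 to 43 in WWD, and WWD had 7.14%, 35% and 25.6% there against 5.97%, 25.8% and 41.9% in WT. Of the 7, 2 were called higher in WT than in TKO, both at reduced depth with 28 reads in TKO. None was called between WWD and WT or between R and WT. A call asks for 25 points, and WT was below 25% at the 4 full-depth positions. Neither WT above TKO nor WWD below WT could therefore be called there. The adjusted p there was 0.0085 or less for WT against TKO (Fisher's exact test). For WWD against WT it was 5.4e-05, 0.021, 0.00066 and 0.0030 by the same test.

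The next promoters were lower by a wide step. Hoxa11, which acts in limb and uterus, had a single position, at 52196043, with 0% of 11 reads in TKO and 3.77% in C, and 3.16% in WT, 0% in R and 8.33% of 12 reads in WWD, so the pools could not be told apart. Hoxd9 had 0% in TKO and C, 3.13% in WT, 5.01% in R and 0.511% in WWD over 8 positions, and 2.84%, 2.98% and 0.681% in WT, R and WWD over the 6 at full depth. Hoxa6 had 1.69% in WT, 2.01% in R, 0.551% in WWD, 0.0833% in TKO and 0.166% in C over 14 positions. Over its 12 full-depth positions Hoxa6 had 0.635% in WT, 1.21% in R and 0.642% in WWD. Hoxd9 kept the order of pools seen in the windows at a low level, and Hoxa6 did so over all positions only. Hoxa5, a gene of lung and neck vertebra patterning, had 1.38% in WT, 1.75% in R, 1.53% in WWD, 1.23% in TKO and 0.227% in C over 9 positions. Over the 7 at full depth it had 1.27% in WT, 1.56% in R, 0.543% in WWD, 0.285% in TKO and 0% in C. The TKO mean over all positions includes a position with 9.09% of 11 reads.

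The lowest 5 were at or near the level of the controls. Hoxa13, a gene of digits and hindgut, had 0.242% in TKO and 0.202% in C, and 0.250% in WT, 0.355% in R and 0.119% in WWD over 20 positions, all at full depth. Hoxd3 had 0.2597% in WT, 0.841% in R, 2.43% in WWD, 0.667% in TKO and 0% in C over 10 positions, and 0% in WT and 0.247% in WWD over the 3 at full depth. Hoxd1 had 0.279% in WT, 0.691% in R, 0% in WWD, 0.694% in TKO and 0% in C over 8 positions, of which 1 was at full depth, with 1.01% in WT and 0% in TKO and WWD. Over all positions of these 3, WT was within 0.5 points of TKO. Hoxd11 had 0.460% in WT, 0.256% in R, 0.402% in WWD, 0.0433% in TKO and 0.121% in C over 22 positions. Over the 17 at full depth it had 0.367% in WT and 0.0490% in WWD. Hoxd10 had 0.633% in WT, 0.823% in R, 0.222% in WWD, 0.672% in TKO and 0.0992% in C over 16, with 0.182% in WT and 0.152% in WWD over the 4 at full depth. Hoxd13, the remaining member, had 0% in TKO and C, 0.699% in WT, 0.130% in R and 0.134% in WWD over 7 positions. None of the positions of these 6 promoters was called higher in WT than in TKO. None could be, as the highest WT level among them was 4.04%, under the difference a call asks for.

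**Figure D5:**
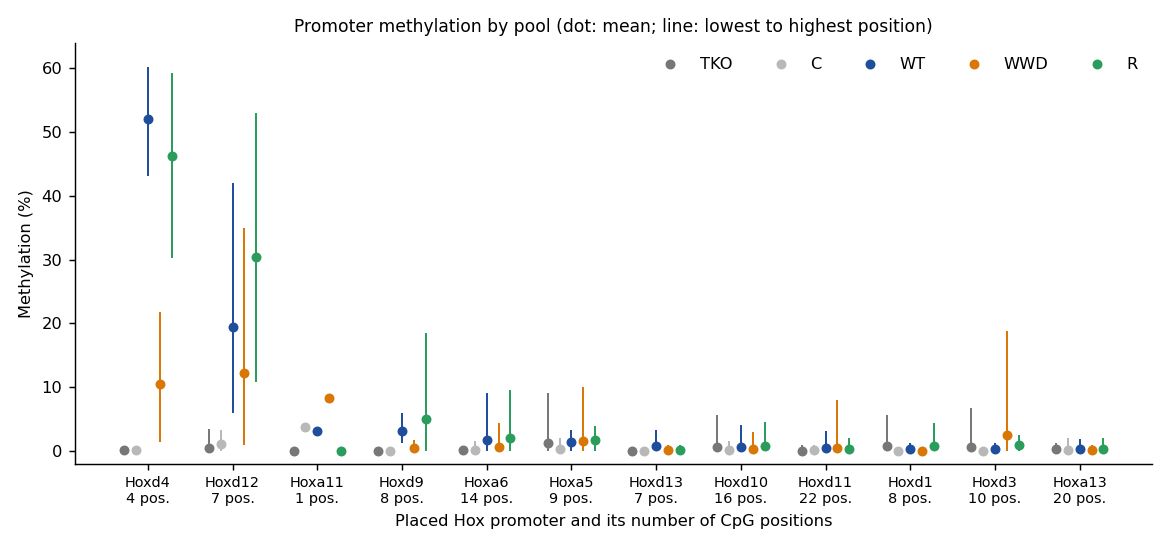
Methylation (%) of the 12 placed Hox promoters in the 5 pools, ordered by the WT mean; dots are means over the CpG positions given below each name, and lines run from the lowest to the highest position. Hoxd4 and Hoxd12 stand above the others in WT and R, and the remaining 10 have WT means under 5%.

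Genes that act with or beside the Hox genes were examined by the same placement. Of 10 neighbours of the clusters, 5 were placed, among them Skap2 beside Hoxa and Lnpk and Mtx2 beside Hoxd, and 0 reached 5% in WT, with levels from 0.116% to 0.355%. Of 14 regulators and cofactors, 5 were placed, including the Hox partners Meis1 (0%), Meis2 (2.31%) and Pbx2 (0.215%), and 0 reached 5%. Of 16 Polycomb and Trithorax genes, 10 were placed, including Ezh2 (0%) and Suz12 (0.0455%) of a Polycomb repressive complex and the Trithorax gene Kmt2a (0.0806%), and 0 reached 5%. Of 25 other homeobox genes, 14 were placed and 1 reached 5%: Nkx2-1, a regulator of lung and thyroid, with 0.192% in TKO and 0% in C, and 9.66% in WT, 9.11% in R and 1.98% in WWD over 8 full-depth positions. Their median in WT was 0.431%, against 0.189% over all other placed promoters.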

How the data were processed

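Genomic DNA was digested with MspI, size-selected from a gel, treated with bisulfite and amplified, per the labels' protocols. Bismark, methylKit and mm9 are named, without versions, per the submitters' processing notes. Per the file headers, a deposited row describes a CpG cytosine on its strand and lists coverage as a read count, besides the percent of those reads showing C (freqC) and T. Since the labels give WT, WWD, R and C a shared table for both numbered samples, each of the 5 deposited tables used was treated as the pool of its group, an assumption. Of 6 tables, 1 is tied to no sample and was not used, and 8 columns of values were not used in all.

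The methylated read count of a position was computed from the deposited coverage and percent and rounded. Positions with at least 10 reads in all 5 pools were kept, without the mitochondrial genome, where the mean was 0.0824% to 0.129% over 152 positions and which carries little CpG methylation. The tables hold 133646344 (TKO) to 210131898 (R) nuclear read calls. Levels are unweighted means over positions, and PCR copies could not be removed. Fisher's exact test, two-sided, was used per position, adjusted by Benjamini-Hochberg over all common positions. Tiles are 1 kb. The test was checked on simulated data.

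RefSeq promoters (GRCm38.p6, used for sequence only) were placed where at least 5 of their CpGs were read and no read position fell off a CpG, at a unique best place on the chromosome. Placements whose spacing differed from that of the 11 neighbouring placed promoters by over 2 kb were left out, a filter added after the data were examined, which removed 627 of 10955. Promoters given in full are the 5 highest and 5 lowest placed members in WT. Sequences are of the 2 highest and 2 lowest by the rule, with Hoxd4 added. Named tiles are the 2 highest and the lowest in WT of each cluster, and named positions the highest at full depth. Members and lists were chosen with earlier results of these data known. Python 3.11.15, numpy 2.4.6, pandas 2.3.3, numba 0.67.0 and scipy 1.17.1 were used.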

Additional observations from a re-analysis of the deposited data

How the results depend on the processing

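Mean levels of the windows are given as TKO, C, WT, WWD and R, and cluster means of WT as Hoxa, Hoxb, Hoxc and Hoxd. With a coverage minimum of 20 reads the levels were 0.227%, 0.196%, 4.71%, 2.01% and 5.26%, the clusters 4.29%, 5.59%, 4.64% and 4.38%, the windows lay -10.9 points from the flanks in WT, where they lay -13.0 points in the values reported, and the WWD gain was 39.7% of the WT gain. With a minimum of 30 the levels were 0.188%, 0.196%, 4.61%, 1.74% and 5.04%, the clusters 4.34%, 5.56%, 4.74% and 3.96%, the difference from the flanks -10.8 points, the gain 35.3% and the mean of the 11 placed promoters 2.15% in WT instead of 2.85%. At full depth they were 0.161%, 0.195%, 4.34%, 1.55% and 4.74%, the clusters 3.86%, 5.58%, 4.58% and 3.56%, the difference -11.6 points, the gain 33.1% and the promoter mean 2.27%. With full depth set by C in place of WT they were 0.185%, 0.200%, 4.69%, 1.81% and 5.19%, the clusters 4.26%, 5.78%, 4.96% and 3.95%, the difference -11.4 points, the gain 36.1% and the promoter mean 2.24%. The cause of these shifts was not tested.

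With the strands of a CpG merged, TKO had 0.408%, WT 5.05% and R 5.76%, the clusters 4.23%, 6.41%, 5.47% and 4.41%, and the gain was 50.3%. With reads pooled over positions TKO had 0.207%, WT 5.09%, WWD 2.03% and R 5.77%, Hoxa 4.19%, Hoxc 5.46% and Hoxd 4.88%, with a difference from the flanks of -12.1 points and a gain of 37.4%. With windows narrowed by 10 kb at each edge WT had 5.03%, WWD 2.80%, R 5.76%, Hoxa 4.21% and Hoxd 4.70%. Flanks of 50 kb gave -11.3 points, and promoters with at least 8 CpGs read a mean of 3.10%. The order of WT, WWD and R, and the sign of the difference from the flanks, were the same under all settings run.

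Counts of called Hox positions moved with the size of difference asked for and with the coverage asked for. The share called over all positions was not computed at these settings, and the backgrounds given earlier do not apply to them. The counts therefore show only how the Hox calls depend on the setting. With 10 points in place of 25, WT was higher than TKO at 371 and lower at 6, WWD higher than TKO at 98, R higher than TKO at 409 and lower at 2, WWD higher than WT at 20 and lower at 222, and R higher than WT at 8. With 40 points the counts were 63 and 0, 20, 83 and 0, 1 and 9, and 0. At a coverage minimum of 20, WWD was higher than TKO at 19 and higher than WT at 2, and WT and R lower than TKO at 0. At full depth WWD was higher than TKO at 6 and than WT at 0, R higher than TKO at 113 and than WT at 1, and WT and R lower than TKO at 0. With full depth set by C, WWD was higher than TKO at 13 and than WT at 0, R higher than WT at 2, and WT and R lower than TKO at 0. Merged strands left 1 position lower in WT than in TKO, and an adjusted p of 0.05 gave 2 lower in R than in TKO. With positions covered only in the 2 pools compared, WWD was higher than WT at 37 and R at 8.

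No paired analysis was possible because each group has a single table, which also leaves no replicate to omit. The spread between cultures is unknown, so no difference between pools is set against it. Positions with under about 30 reads in TKO or WWD give wide intervals, and Hoxb and Hoxc promoters and CpGs far from MspI sites were not analysed here.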

Other observations

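Promoters of other genes that the placement put inside the windows were chosen for mention after their values were seen. Gm51876, a predicted gene in the Hoxb window, had 17.5% in WT, 22.4% in R, 3.38% in WWD and 0% in TKO and C over 5 positions from 96130440 to 96130549, all at full depth. It was thus higher in WT and R than in WWD, as Hoxd4 was, in a cluster where no Hox promoter was placed. Its sequence has 7 CpGs, and its WT level was near the mean of 15.7% over placed promoters with under 10. Of those, 56.7% reached 5% in WT. The antisense transcript Hoxb3os had 0.534% in WT over 21 positions, and Hoxa11os, antisense to Hoxa11, had 1.195% over 17.

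Tiles with the lowest and highest share of the WT level left in WWD were also read off after the data were examined, among the 31 tiles with at least 10% in WT at full depth, where the median share was 28.4%. The choice by WT favours values of WWD below WT. The tile at 102793001 to 102794000 in Hoxc had 16.2% in WT, 8.81% in R and 1.23% in WWD over 5 positions. The tile at 52189001 to 52190000 in Hoxa had 11.5% in WT, 12.1% in R and 6.38% in WWD over 6 positions. WWD was below WT in both, at unlike shares of the WT level, 7.59% and 55.6%, and neither value has a spread between samples.

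At the tile at 96115001 to 96116000 in Hoxb, R had 25.5% and WT 14.6% over 6 full-depth positions, with 2.36% in WWD, the largest excess of R over WT among the 31 tiles.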
